A study of Mus musculus with 7 samples.

Results

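The genes described here are 10 immediate early and stress genes, Fos, Fosb, Junb, Jun, Egr1, Egr2, Atf3, Gadd45b, Npas4 and Arc. They were chosen by name, with their levels by cell type and by viral RNA in these libraries already known, so those levels are given as descriptions, without a test. They are 10 of the 25870 genes in the count tables and hold 47870 unique molecular identifiers (UMIs, the tags that mark single captured transcripts) in the nuclei kept.

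The nuclei came from the primary visual cortex (V1) of male C57BL/6J mice, aged 6 to 10 weeks, that had been injected with an adeno-associated virus library (SST PESCA AAV9), in which barcoded vectors carry candidate gene regulatory elements. Single-nucleus RNA-Seq (snRNA-Seq) on the inDrops droplet platform was done 12 days after the injection in 2 mice, with 5 libraries per animal. The 10 libraries are numbered as 2 sets of 5, no label ties a set to an animal, and all of them form 1 sample, so no test between groups of nuclei was possible. All nuclei shared the injection, and nuclei without viral UMIs were therefore not nuclei of uninjected cortex. Chromatin accessibility (ATAC-Seq) was measured in uninjected mice of 6 to 12 weeks that carried SUN1-2xsfGFP-6xMYC with Sst-IRES-Cre, Pv-Cre or Vip-IRES-Cre, 2 samples for each cell type. Cre marks these cells by lineage, and whole cortex was used there, not V1 alone.

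Immediate early genes are transcribed within minutes of synaptic activity, growth factors or injury, without new protein synthesis, through factors such as CREB and SRF that already sit at their promoters. Their products are mostly transcription factors, of the AP-1, EGR and ATF families, which switch on later genes. In cortical neurons they are read as marks of recent activity, and Jun, Atf3 and Gadd45b also belong to the response to DNA damage and axon injury.

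Of the 47348 barcodes, 31896 passed a minimum of more than 200 non-viral UMIs and counted as nuclei. The libraries held 2448 to 3555 nuclei and 2478347 to 2981225 non-viral UMIs, with a median of 713 UMIs per nucleus over all. Library 2-5 had a mean of 7.46 viral UMIs per nucleus against 13.9 to 19.2 in the other 9. Of 25579 barcode names among the nuclei, 5368 occurred in more than 1 library, and barcodes were read within their library. Nuclei were gated by marker lists that hold none of the 10 genes, and a gated group is called by its list, as in excitatory-like. The gates gave 8526 excitatory-like, 734 SST-like, 303 PV-like, 421 VIP-like, 694 NPY-like, 1602 astrocyte-like, 1491 oligodendrocyte-like, 296 OPC-like (oligodendrocyte precursor), 416 microglia-like, 533 vascular-like and 111 lymphocyte-like nuclei, and left 16769 nuclei (52.6%) without a type. Of 695 nuclei that passed 2 or more lists, 474 kept a type by their leading list, and no doublets were removed.

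The promoters of 5 of the genes are shown because they hold letters that immediate early promoters are known for, and that of Jun because the search found none of them there. RefSeq promoters (GRCm38.p6) of 8 of the 10 genes were used, and those of Egr1 and Arc were not searched. The 250 bases before the start site were searched for 6 motifs, on both strands except for the TATA box. Capitals mark TGACG, the core of the cAMP response element (CRE) that CREB binds, on either strand, TATAAA on the gene's own strand, GCGGGGGCG, an EGR site, and the CArG box, which SRF binds. The stretches are chr12:85473640-85473889 on the plus strand for Fos, chr7:19310052-19310295 on the minus strand for Fosb, chr4:95052223-95052472 on the minus strand for Jun, chr10:80929841-80930072 on the plus strand for Gadd45b, chr10:67537789-67537818 on the plus strand for Egr2 and chr19:4990126-4990155 on the minus strand for Npas4, each written 5′ to 3′.
Fos: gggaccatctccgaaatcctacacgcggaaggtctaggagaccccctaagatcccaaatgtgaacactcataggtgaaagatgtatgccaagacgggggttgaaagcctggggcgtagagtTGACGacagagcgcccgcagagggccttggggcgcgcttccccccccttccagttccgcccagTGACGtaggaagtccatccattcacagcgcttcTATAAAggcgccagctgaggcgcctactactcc
Fosb: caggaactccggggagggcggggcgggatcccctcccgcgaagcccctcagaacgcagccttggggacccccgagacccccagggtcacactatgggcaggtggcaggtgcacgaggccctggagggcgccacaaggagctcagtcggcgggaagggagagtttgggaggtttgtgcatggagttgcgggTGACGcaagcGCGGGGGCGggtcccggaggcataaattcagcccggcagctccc
Jun: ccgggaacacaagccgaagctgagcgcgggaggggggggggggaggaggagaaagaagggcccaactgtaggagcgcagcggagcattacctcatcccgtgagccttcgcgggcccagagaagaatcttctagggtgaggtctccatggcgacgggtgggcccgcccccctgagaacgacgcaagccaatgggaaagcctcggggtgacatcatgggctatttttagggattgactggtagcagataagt
Gadd45b: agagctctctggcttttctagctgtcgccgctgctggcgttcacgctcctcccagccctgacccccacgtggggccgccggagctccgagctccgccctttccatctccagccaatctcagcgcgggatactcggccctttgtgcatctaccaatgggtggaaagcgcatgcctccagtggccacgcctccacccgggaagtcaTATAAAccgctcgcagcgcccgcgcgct
Egr2: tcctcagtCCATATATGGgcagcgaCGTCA
Npas4: ttcgaCGTCAcgggaTGACGtcggaagtct

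Fos, the classical AP-1 partner of Jun, held TGACG with its first base at -129 and at -66 from the start site and TATAAA at -33. Fosb held TGACG at -60 and the EGR site at -50, and Junb held TGACG at -106. Npas4 held TGACG on opposite strands at -179 and -169, and the stretch before the third of 5 Egr2 starts listed held a CArG box at -72 and TGACG at -111 and -55. Atf3 held TGACG at -7, Gadd45b held TATAAA at -46, and the search found none of the 6 motifs in the stretch before Jun. The full CRE (TGACGTCA) and the AP-1 site (TGANTCA), which are searched apart from TGACG although the first contains it, were found in none of the 8. Among 32851 promoters of the same length, TGACG stood in 17.8%, TATAAA in 7.59%, the AP-1 site in 6.75%, the EGR site in 2.57%, the full CRE in 1.55% and the CArG box in 1.47%. A match of letters is a description and shows no binding.

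Excitatory-like nuclei held the highest levels of Egr1, Arc, Egr2, Fosb and Npas4 among gated types of more than 111 nuclei, and vascular-like nuclei the highest level of Jun. Levels are UMIs per 10000 non-viral UMIs, summed over the nuclei of a type, and are compared between types for 1 gene, never between genes. Folds are the level in a type over that in all other gated nuclei, and exact 95% Poisson intervals here and throughout cover counting error only. Nuclei without a type had Egr2 at 0.754 and Fosb at 0.243, above the excitatory-like 0.653 and 0.226. Their Egr1, Arc and Npas4 were below the excitatory-like level. At least 2-fold higher in excitatory-like nuclei were 6 of the 10 genes, against 6.46% of the 12994 genes with at least 100 UMIs, and the median fold was 2.43 for the 10 genes and 1.04 for all genes. The 6 were named with these levels known, and nothing is read from this count. With Leiden clusters in place of the gates 3 genes passed, Fosb, Egr2 and Npas4, with Arc at 1.60, Egr1 at 1.89 and Junb at 1.63. In that setting 4 clusters of 5479 nuclei were named for other types at marker enrichments of 0.795 to 1.28. The clusters named excitatory had enrichments of 1.03 to 1.298. Enrichment is a list's share in a cluster over its share in all nuclei kept, which limits how high it can be for a common type. With the 4 clusters left out, a choice made after seeing the data, 6 genes passed, with Arc at 3.75, Egr1 at 3.25 and Junb at 2.44. The share of all genes past 2-fold is not given for the cluster settings, and nothing is read from their counts.

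Arc, a synaptic capsid-like protein whose RNA marks recent activity, lay between 5.16 and 6.30 over the 10 libraries in excitatory-like nuclei, with a median of 5.93. Pooled, it stood at 5.80, 3.21-fold (3.00 to 3.44) above the other gated nuclei, and was higher in 10 of 10 libraries. Egr1, a zinc finger factor induced by activity, lay between 5.87 and 7.99 with a median of 7.03, and was 2.67-fold higher (2.52 to 2.83) in 10 of 10 libraries. Npas4, a bHLH-PAS factor that in neurons follows calcium entry, had the largest fold of the 10 genes, 3.95 (2.97 to 5.35), from 415 against 54 UMIs. It too was higher in 10 of 10 libraries, where it lay between 0.225 and 0.650.

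Fos lay between 0.984 and 1.95 in excitatory-like nuclei, with a median of 1.41, and was 1.69-fold higher (1.51 to 1.88) than in the other gated nuclei. Fosb, its paralogue, was 2.65-fold higher (1.92 to 3.72), Junb, a Jun relative, was 2.22-fold higher (2.05 to 2.41), and Egr2 was 3.06-fold higher (2.51 to 3.76), each in 10 of 10 libraries. Gadd45b, a stress sensor tied to DNA demethylation, was 1.49-fold higher (1.23 to 1.81) in 9 of 10 libraries. Jun went the other way, at 0.585 times (0.532 to 0.643) the level of the other gated nuclei, and was higher in 0 of 10 libraries, but stood at 1.12 with Leiden clusters and at 0.7998 with the same 4 clusters left out. Atf3, an injury-induced ATF factor, had 37 UMIs in 8526 excitatory-like nuclei, at 0.432 times the level elsewhere, and was lower in 6 of 10 libraries. Its direction turned with Leiden clusters and in library set 1 alone, but not with the same 4 clusters left out.

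**Figure D1:**
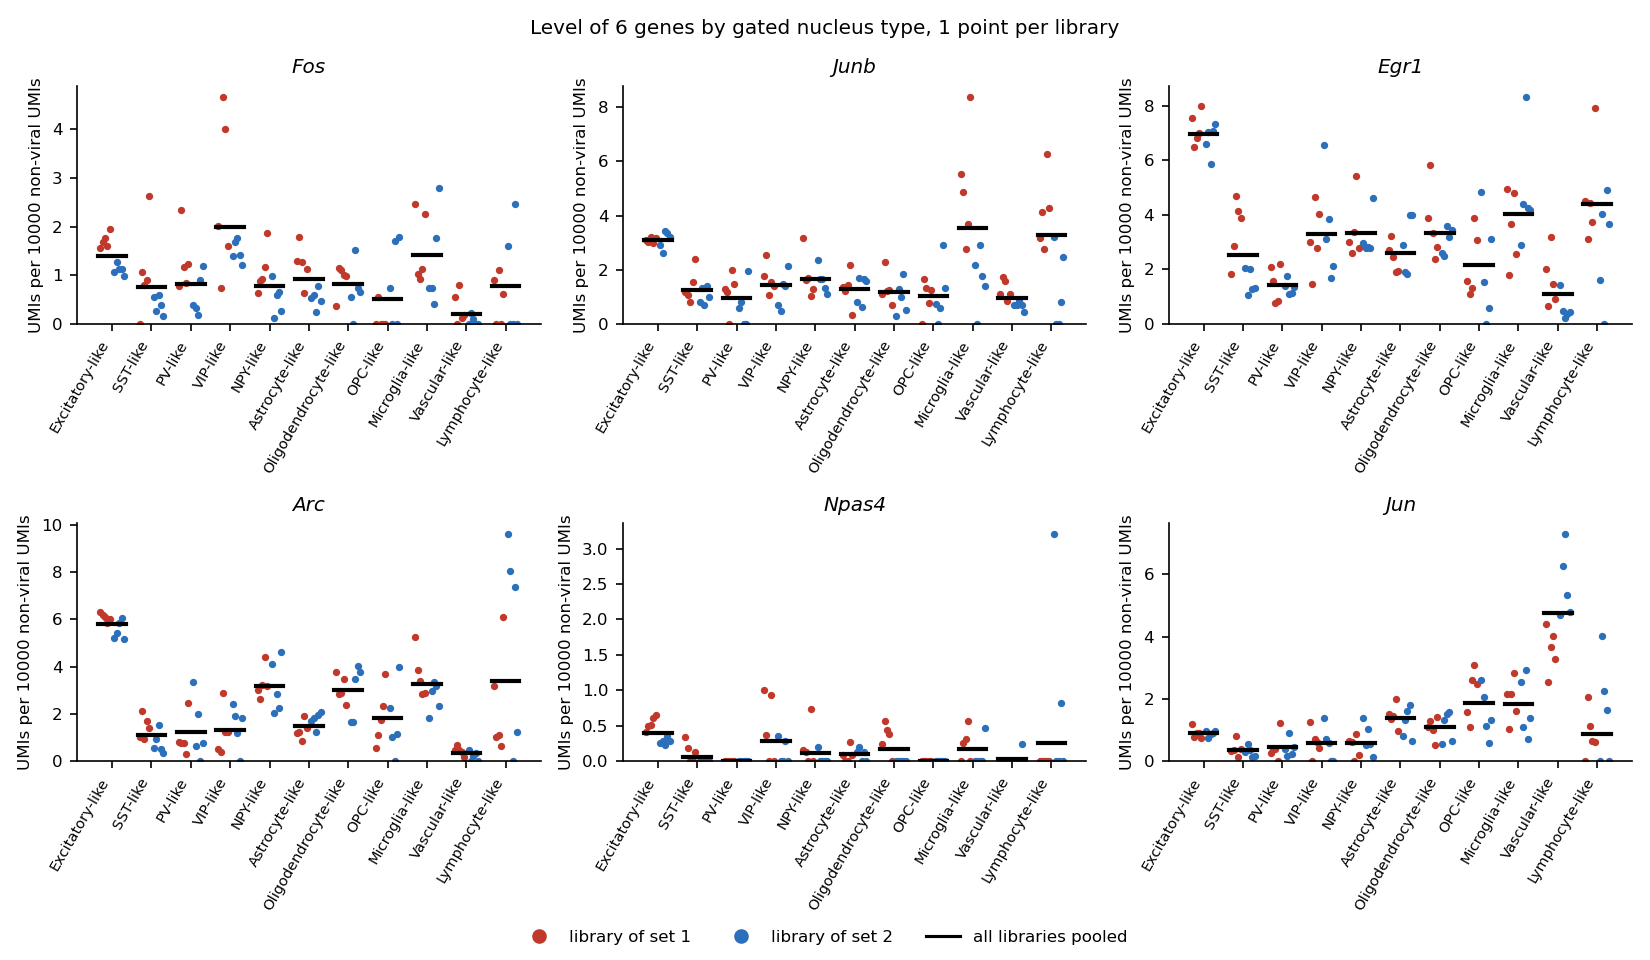
UMIs per 10000 non-viral UMIs (y axes) of Fos, Junb, Egr1, Arc, Npas4 and Jun in each gated type (x axes), with 1 point per library. The pooled level of Arc was highest in excitatory-like nuclei among types of more than 111 nuclei, with every library between 5.16 and 6.30, while libraries of the 111 lymphocyte-like nuclei lay between 0 and 9.60, and vascular-like nuclei stood highest for Jun, between 2.52 and 7.29.

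Vascular-like nuclei had a Jun level of 4.76, from 397 UMIs, which was 5.27-fold (4.70 to 5.90) that of the other gated nuclei and higher in 10 of 10 libraries. The libraries lay between 2.52 and 7.29, with a median of 4.55, and did not overlap those of excitatory-like nuclei, which lay between 0.743 and 1.19. A Jun UMI was found in 36.8% of vascular-like and 7.04% of excitatory-like nuclei, whose median depths were 1165 and 1130 UMIs. Fos, the partner of Jun in AP-1, was at 0.192 there, 0.153 times the level elsewhere (0.0873 to 0.249), and Arc was at 0.324, 0.0693 times. Junb was at 0.947, so the JUN paralogues took opposite positions in this type. Atf3 was 3.45-fold higher (1.75 to 6.29) from 13 UMIs, and with Jun these were 2 of 10 genes at least 2-fold higher, against 16.3% of all genes.

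None of the 10 genes was at least 2-fold higher in SST-like nuclei (4.51% of all genes were), PV-like (6.65%), VIP-like (5.4%), NPY-like (2.41%), astrocyte-like (11.7%) or oligodendrocyte-like nuclei (6.05%). Among interneurons Fos was highest in VIP-like nuclei, at 2.00 (1.56 to 2.53) from 70 UMIs, with libraries between 0.728 and 4.66 around a median of 1.64. In the same nuclei Arc was at 1.31 and Egr1 at 3.31, both under the excitatory-like level, while Fos was above it. SST-like nuclei had Egr1 at 2.54, Arc at 1.10 and Fos at 0.763, and PV-like nuclei had Egr1 at 1.43, Arc at 1.23 and no Npas4 UMI in 303 nuclei. NPY-like nuclei held Arc at 3.18, and their excitatory marker list stood at 20.95 UMIs per 10000 against 5.92 in SST-like and 4.51 in PV-like nuclei. The part of excitatory RNA in these values was not tested.

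Microglia-like nuclei had Junb at 3.55, Egr1 at 4.05 and Fos at 1.405. Their Junb level was 4.98 in library set 1 and 1.63 in set 2, with libraries from 0 to 8.37, while excitatory-like nuclei had 3.10 and 3.09. The excitatory list stood at 18.5 in them, at 17.8 in lymphocyte-like, 13.9 in oligodendrocyte-like, 12.2 in OPC-like, 9.83 in astrocyte-like and 3.39 in vascular-like nuclei, beside 42.1 in the excitatory-like ones. Arc stood at 3.24, 3.37, 3.00, 1.81, 1.48 and 0.324 in the same order of the 6 non-neuronal types, which is the order of the list except for lymphocyte-like nuclei. Jun did not keep this order, at 1.84 in microglia-like, 1.11 in oligodendrocyte-like, 1.37 in astrocyte-like and 4.76 in vascular-like nuclei. Barcodes of at most 200 UMIs, which were not kept as nuclei, had Egr1 at 7.53, Arc at 3.97, Junb at 2.65, Jun at 1.69 and Fos at 1.28. They had Egr2 at 0.771, Fosb at 0.285, Gadd45b at 0.430, Npas4 at 0.162 and Atf3 at 0.0671. Of these, Egr1, Egr2, Fosb, Gadd45b, Jun and Atf3 were above the excitatory-like level, and Arc, Junb, Fos and Npas4 were under it. The part of free RNA in the levels of the gated types, excitatory-like nuclei among them, was not tested.

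In 3 small types single genes passed 2-fold on few UMIs. Atf3 was the 1 gene of 10 in OPC-like nuclei (12.3% of all genes), with 15 UMIs of which 11 came from 1 nucleus, and in microglia-like nuclei (10.1%), with 10 UMIs of which 4 came from 1 nucleus. Egr2, which in lymphocytes follows antigen receptor signals, was the 1 gene in lymphocyte-like nuclei (12.6%), at 1.04 from 12 UMIs, and was higher in 3 of 10 libraries.

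Within excitatory-like nuclei the layers differed. Egr1 stood at 10.2 in the 311 nuclei gated for layer 4, 8.74 in the 640 of layer 6, 4.84 in the 806 of layer 2/3 and 4.08 in the 660 of layer 5. Layer 4 libraries lay between 6.17 and 13.1 and layer 5 libraries between 2.78 and 5.58, without overlap. The layer 4 range held all of the layer 6 range, from 7.41 to 10.6, and overlapped that of layer 2/3. Layers 4 and 6 were thus not set apart by library, and the ranges of layers 2/3 and 5 also overlapped. Pooled over libraries, Arc was highest in layer 6, at 8.58, and lowest in layer 5, at 3.93. Pooled Fos was highest in layer 4, at 1.79, and lowest in layer 5, at 0.685. Layer 4 libraries for Fos, from 0.957 to 3.22, overlapped those of layers 2/3, 5 and 6. Gadd45b had no UMI in layer 4, where the floor of 3 counts allows up to 0.0641, against 0.447 in layer 6.

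The viral UMIs of a nucleus were then used to order excitatory-like nuclei, after each nucleus of at least 500 non-viral UMIs had been thinned at random to 500, so that depth was equal. Bins of 0, 1 to 4, 5 to 19, 20 to 79 and 80 or more viral UMIs held 781, 2317, 2494, 1750 and 419 nuclei. The libraries did not share the bins alike, since set 1 held 27.4% of the nuclei in bin 0, 185 of which came from library 2-5 alone, and 55.1% of those in the top bin. Of the 10 genes, 5 stood at least 2-fold higher in the top bin than in bin 0, Egr2, Jun, Gadd45b, Fosb and Atf3, and Arc and Npas4 had folds close to 1. The background was 9.67% of 10294 genes, and the median fold was 2.15 for the 10 genes and 1.01 for all genes, and nothing is read from this count, since the genes were named with it known.

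Egr2 stood at 0.512, 0.449, 0.617, 0.994 and 1.91 from the lowest to the highest bin, a fold of 3.73 (2.13 to 6.73) between the ends. Jun stood at 0.948, 0.561, 0.826, 1.22 and 2.39, a fold of 2.52 (1.61 to 3.96). Gadd45b stood at 0.282, 0.293, 0.409, 0.537 and 1.00, a fold of 3.56 (1.64 to 8.17). For these 3 genes the highest levels lay in the upper 2 bins, and for Jun and Egr2 the lowest level was in the bin of 1 to 4. Junb was 1.78-fold (1.37 to 2.33), Fos 1.64-fold (1.06 to 2.52) and Egr1 1.32-fold (1.09 to 1.59) higher in the top bin, each with an interval above 1. Fosb rested on 12 against 4 UMIs, at 5.59 (1.69 to 23.8), and Atf3 on 4 against 1 UMI, at 7.46 (0.738 to 367). Arc stood at 6.38, 6.31, 6.13, 5.94 and 6.01, a fold of 0.943 (0.755 to 1.17), and Npas4 at 0.410 and 0.430 in the end bins, a fold of 1.05 (0.408 to 2.52). The interval of Npas4 still holds a 2-fold difference, and that of Arc does not. Taken within libraries (Mantel-Haenszel ratio, approximate 95% interval), which keeps out the make-up of the bins by library but not that by layer or depth, the folds were 3.27 (1.87 to 5.71) for Egr2, 2.47 (1.58 to 3.85) for Jun, 3.15 (1.44 to 6.89) for Gadd45b, 1.87 (1.398 to 2.49) for Junb and 1.38 (1.14 to 1.68) for Egr1. For Fos it was 1.49 (0.925 to 2.39), an interval that holds 1, and for Arc 0.958 (0.759 to 1.21). Fosb was at 4.65 (1.48 to 14.6), Atf3 at 7.76 (0.680 to 88.6) and Npas4 at 0.819 (0.347 to 1.93). The same 5 genes were thus past 2-fold. The share of all genes past 2-fold within libraries is not given, and nothing is read from this count.

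**Figure D2:**
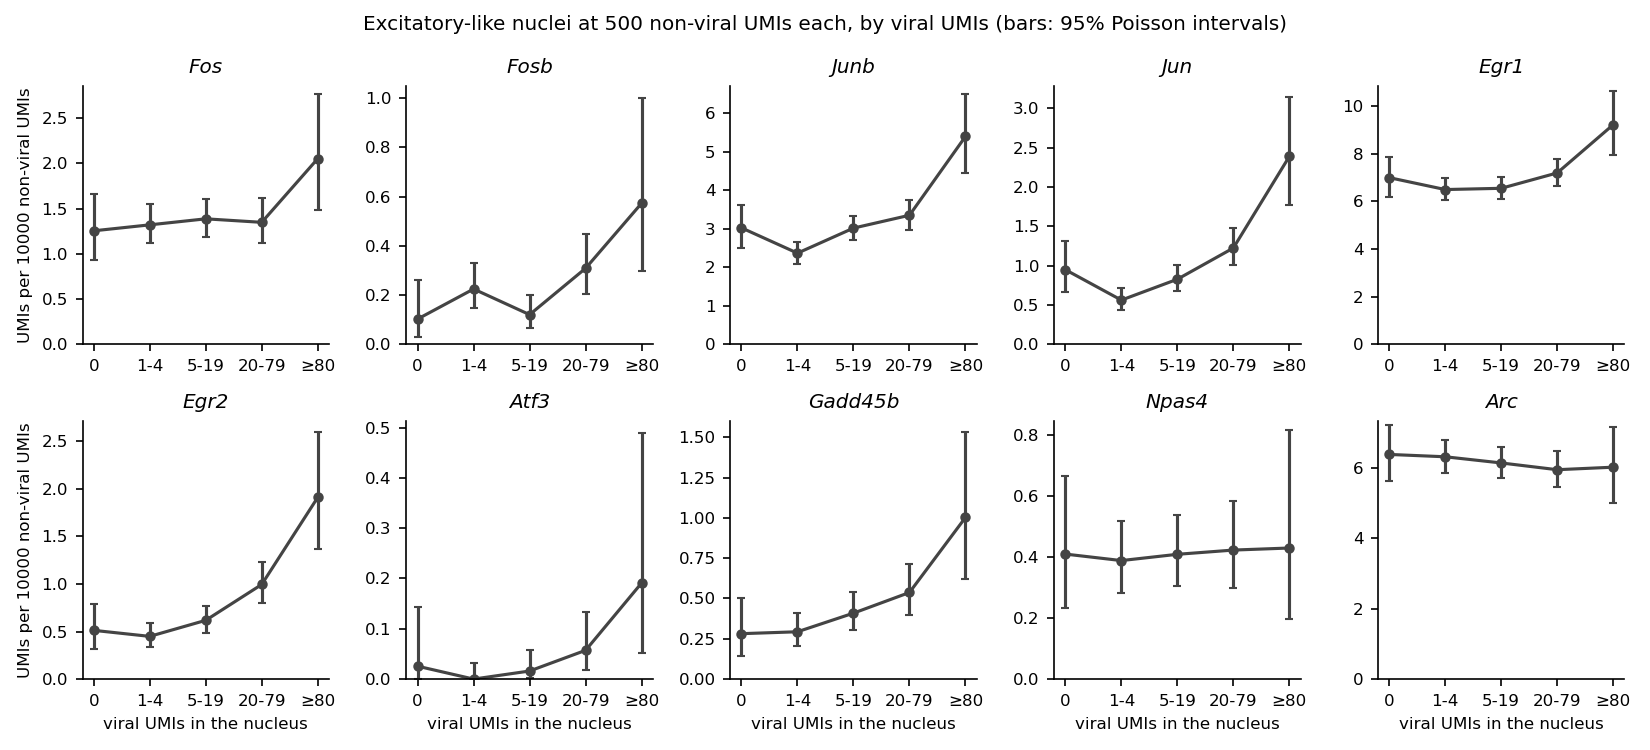
UMIs per 10000 non-viral UMIs (y axes) of each of the 10 genes in excitatory-like nuclei, by bin of viral UMIs (x axes), at 500 UMIs per nucleus with exact 95% Poisson intervals. Jun, Egr2 and Gadd45b stood highest at 80 or more viral UMIs, and Arc stayed between 5.94 and 6.38.

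The library sets were not alike in which genes stood out. Egr2 was 4.26-fold higher in the top bin in set 1 and 3.42-fold in set 2, and Junb 2.46-fold and 1.44-fold. Fos was 3.40-fold higher (1.59 to 8.07) in set 1 and at 0.754 times (0.336 to 1.53) in set 2, where the interval holds 1. Jun was 1.54-fold (0.719 to 3.46) in set 1 and 3.62-fold (2.06 to 6.42) in set 2, and Gadd45b 1.85-fold and 5.43-fold. The difference between sets was not tested. Leaving out 1 library at a time gave 4 to 6 genes past 2-fold, with Atf3 lost without library 1-4, 1-5 or 2-4 and Fos gained, at 2.08, without library 2-2. Fosb, on its few UMIs, came to 10.9 without library 2-2 and 3.69 without library 2-4, and Atf3, with no UMI left in bin 0 without library 2-2, was at least 2.43-fold higher there by the floor of 3 counts.

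With wider groups, 20 or more against under 5 viral UMIs, each library gave a value of its own. Jun was higher in 10 of 10 libraries, at 0.778 to 2.31 against 0.490 to 1.09, a pooled fold of 2.20 (1.70 to 2.85). Junb was also higher in 10 of 10, at 2.77 to 5.51 against 1.51 to 3.12, with a pooled fold of 1.48 (1.28 to 1.70). Gadd45b was higher in 9 libraries, Egr1 and Egr2 in 8, Fos in 7, Fosb and Npas4 in 6 and Arc in 2 of 10. Atf3 had a UMI in 5 libraries, of which 4 were higher. Pooled, 4 of the 10 genes were past 2-fold, Jun, Egr2 at 2.52, Gadd45b at 2.16 and Atf3 on 9 against 1 UMI, while Fosb stood at 1.86 (1.12 to 3.10) and Fos at 1.14 (0.920 to 1.41). The share of all genes past 2-fold in this grouping is not given, and nothing is read from this count. Arc was at 0.942 times (0.851 to 1.04), an interval that holds no 2-fold difference in either direction. Jun, Junb and Gadd45b were thus higher in nearly every library, and Arc was lower in 8.

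**Figure D3:**
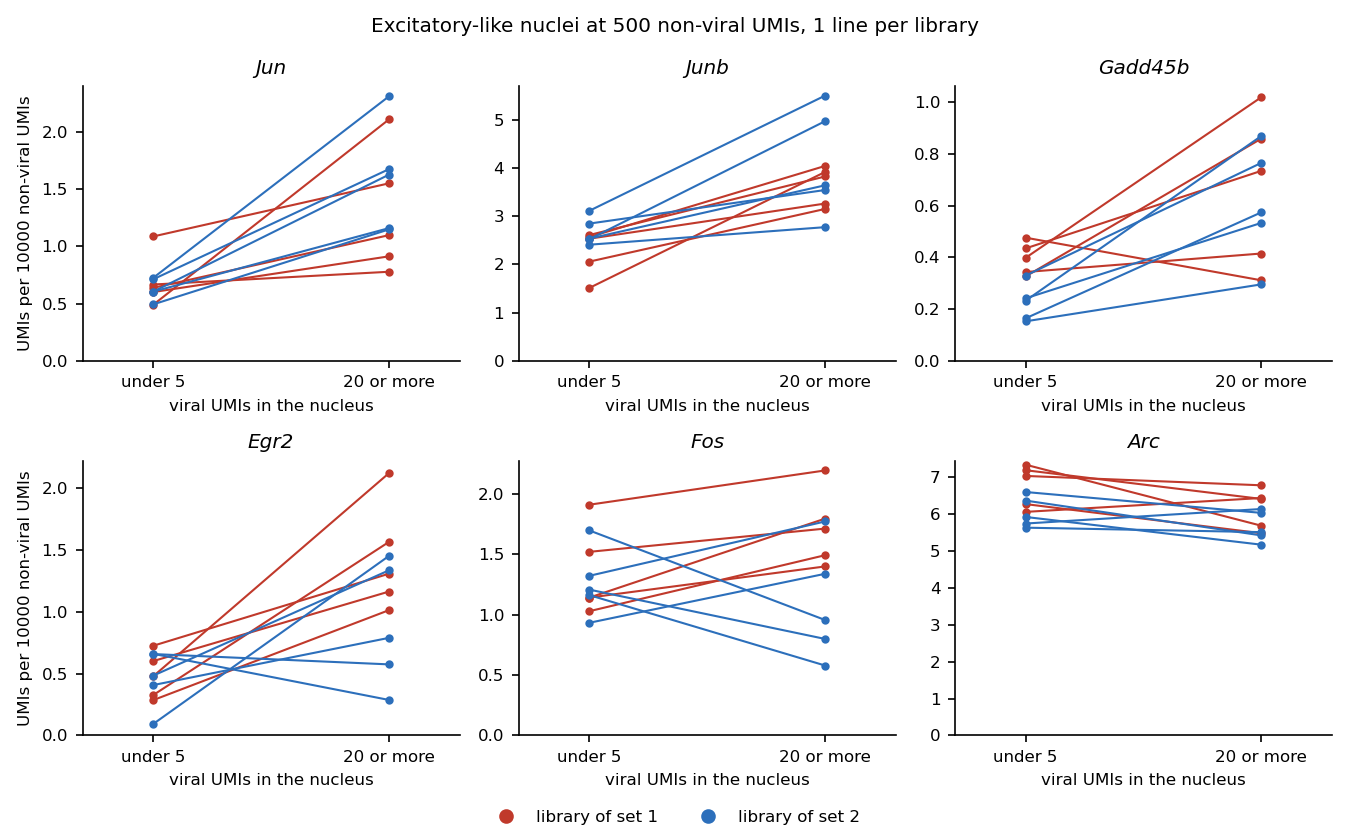
UMIs per 10000 non-viral UMIs (y axes) of Jun, Junb, Gadd45b, Egr2, Fos and Arc in excitatory-like nuclei with under 5 and with 20 or more viral UMIs (x axes), with 1 line per library. The line of Jun and that of Junb went up in 10 of 10 libraries, and that of Arc in 2.

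Other measures moved with the viral bins. From bin 0 to the top bin the median depth before thinning went from 1014 to 1614 UMIs, the excitatory marker list from 48.2 to 39.6 per 10000, the layer 4 list from 2.79 to 0.764, the layer 2/3 list from 3.30 to 5.30, the layer 5 list from 3.46 to 5.16, the NPY list from 3.23 to 5.11 and mitochondrial RNA from 10.3 to 7.49. The microglia list, which holds 10 genes, went from 0.845 with 2 genes at 0 to 0.811 with 1 gene at 0, the astrocyte list from 1.41 to 1.05, and the vascular list from 0.384 to 0.621, with 6 of its 10 genes at 0 in the top bin. The part of these differences in the levels of the 10 genes was not tested. Within layers, the summed level of the 10 genes with 20 or more against under 5 viral UMIs was 1.25-fold (1.02 to 1.53) in layer 2/3, 0.897-fold (0.664 to 1.20) in layer 4, 1.57-fold (1.22 to 2.03) in layer 5 and 1.22-fold (1.01 to 1.48) in layer 6.

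The summed level of the 10 genes in excitatory-like nuclei was 19.9, 18.4, 19.5, 21.4 and 29.2 over the 5 bins, a fold of 1.46 (1.31 to 1.63) between the ends. The sum weighs genes by their UMIs, here and within layers, so most of it in bin 0 was Egr1, at 6.99, and Arc, at 6.38. Jun, Egr2, Gadd45b, Fosb and Atf3 stood at 0.948, 0.512, 0.282, 0.102 and 0.0256 there. With 20 or more against under 5 viral UMIs it was 1.22-fold (1.15 to 1.29) in excitatory-like nuclei and 1.22-fold (1.16 to 1.29) in nuclei without a type. In the latter Jun was 2.10-fold, Egr2 2.68-fold and Gadd45b 2.87-fold higher, and Arc was at 0.681 times (0.609 to 0.761). Of the interneurons, SST-like nuclei had 1.48 (0.970 to 2.32), VIP-like 1.24 (0.778 to 1.97), PV-like 0.715 (0.351 to 1.49) and NPY-like 0.733 (0.536 to 0.993), on few UMIs. Oligodendrocyte-like nuclei had 2.16 (1.56 to 2.97), from 62 UMIs in 75 nuclei against 111 in 290. Their excitatory marker list was at 22.7 in the nuclei of 20 or more viral UMIs and 13.7 in those under 5, and in lymphocyte-like nuclei, with a fold of 2.29 (1.08 to 4.83), at 31.2 and 5.64. In microglia-like nuclei the summed fold was 1.45 (1.01 to 2.06) with the list at 23.4 and 16.2, and in astrocyte-like nuclei 1.21 (0.875 to 1.66) with the list at 14.4 and 10.4. In vascular-like nuclei it was 1.14 (0.530 to 2.17), with the list at 13.3 and 2.53, and in OPC-like nuclei 2.25 (1.00 to 4.83) from 12 against 20 UMIs, where the list was lower, at 7.5 against 13.7. Whether excitatory RNA entered the values of the non-neuronal types was not tested.

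Co-detection was measured in the 7761 excitatory-like nuclei thinned to 500 UMIs, as nuclei with a UMI of both genes over the number expected from the product of the genes' shares. Of the 45 pairs, 43 were seen more often than expected, with a median ratio of 1.91. For 31 pairs more than 3 nuclei were expected, and of these 30 were seen more often than expected, 26 with an interval above 1 and 10 at least 2-fold, with a median ratio of 1.69. The nuclei share libraries and depth, and the correlation per pair over nuclei (phi) was weak throughout, from -0.01 to 0.18. They were also pooled over layers, whose levels differed. Ratios for pairs of other genes are not given, and these counts are not read as particular to the 10 genes.

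The most often detected pair, Egr1 and Arc, was found together in 586 nuclei against 433 expected, a ratio of 1.35 (1.25 to 1.47). The highest ratios among the 31 pairs were those of Jun and Gadd45b, in 20 nuclei against 5.14 expected (3.89, 2.38 to 6.01), and of Egr2 and Gadd45b, in 16 against 4.24 (3.77, 2.16 to 6.13). Fos and Fosb were found together in 14 nuclei against 4.22 expected (3.32, 1.81 to 5.56). Npas4 was paired with Arc in 64 nuclei against 33.7 (1.90, 1.47 to 2.43) but with Jun in 4 against 5.36 (0.746, 0.203 to 1.91), the only ratio under 1 among the 31. Jun and Arc were at 1.20 (0.952 to 1.50), and the difference between the ratios of Jun was not tested.

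**Figure D4:**
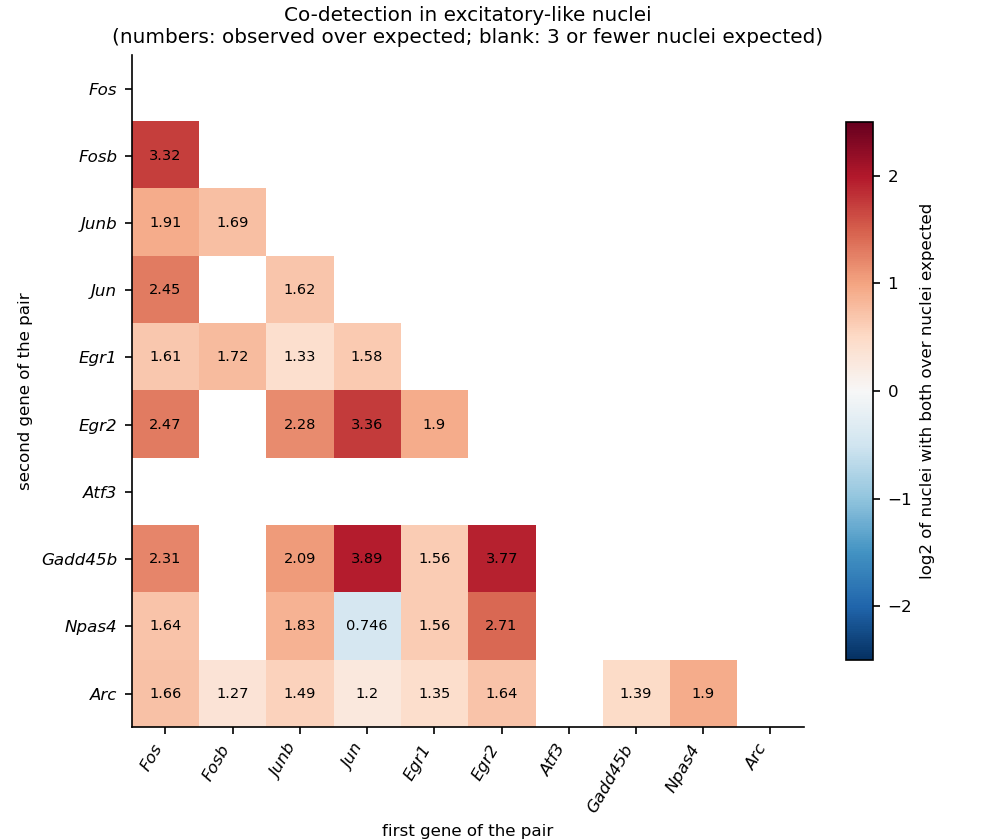
Ratio of observed to expected nuclei with a UMI of both genes, for each pair of the 10 genes (both axes), in 7761 excitatory-like nuclei at 500 UMIs. The 31 pairs with more than 3 nuclei expected lay between 0.746 for Jun with Npas4 and 3.89 for Jun with Gadd45b.

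Nuclei with several of the genes were more common than independent detection gives. Of the 7761 nuclei, 3786 had none of the genes, 2557 had 1 and 1006 had 2, while 412 had 3 or more against 205 expected, a ratio of 2.01 (1.82 to 2.21). At 4 or more there were 115 nuclei against 17.8 expected (6.47, 5.35 to 7.77), and at 5 or more 32 against 0.882. The ratio at 3 or more was 1.93 in library set 1 and 2.09 in set 2, and 2.03, 1.73, 2.18 and 1.96 in nuclei of under 5, 5 to 19, 20 to 79 and 80 or more viral UMIs. The share of nuclei with 3 or more genes was 4.48%, 4.53%, 4.09%, 6.80% and 12.2% from the lowest to the highest bin. With 4 or more genes it was 0.384%, 0.734%, 1.12%, 2.11% and 7.16%, from 3, 17, 28, 37 and 30 nuclei. The intervals of the latter were 0.0793% to 1.12% in bin 0 and 4.88% to 10.1% in the top bin. In the libraries the share with 4 or more genes lay between 0.596% and 2.14%. With 3 or more genes were 5.31% of excitatory-like (4.82 to 5.83), 3.92% of microglia-like (1.71 to 7.58), 0.535% of SST-like (0.110 to 1.55) and 0.473% of vascular-like nuclei (0.0573 to 1.70), with exact 95% binomial intervals.

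**Figure D5:**
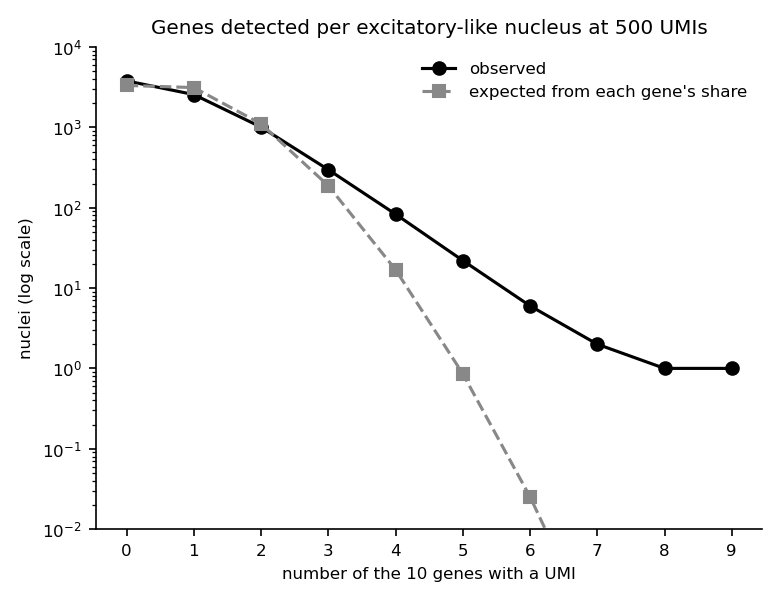
Number of excitatory-like nuclei (y axis, log scale) by how many of the 10 genes had a UMI at 500 UMIs (x axis), in the data and expected from the genes' shares. The counts for 3 or more genes were above expectation, 412 against 205 nuclei.

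Splitting these nuclei by a Fos UMI gave 455 with and 7306 without, with a median of 8 and 7 viral UMIs. At least 2-fold higher in nuclei with Fos were 7 of the other 9 genes, against 5.58% of 12867 genes, with a median of 2.62 for the 9 and 1 for all genes. Since the genes were chosen with earlier results of these data known, nothing is read from this count. Jun was at 3.16 against 0.794, a fold of 3.99 (3.04 to 5.18), Fosb at 4.69 (2.66 to 7.93), Egr2 at 3.47 (2.49 to 4.74) and Gadd45b at 2.62 (1.61 to 4.09). Egr1 was 2.06-fold and Junb 2.05-fold higher, and Arc 1.93-fold (1.68 to 2.19). Npas4 was at 1.56 (0.833 to 2.71), and Atf3 at 8.03 from 4 against 8 UMIs.

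Genes of the same programmes that are not among the 10 were read from fixed lists. These lists were chosen with earlier results of these data known, so their counts and medians, here and below, are descriptions. In nuclei with a Fos UMI, where 5.58% of all genes were at least 2-fold higher, 2 of 4 further EGR and NR4A genes were, Nr4a2 at 2.81 (1.89 to 4.07) and Egr4 at 2.35 (1.77 to 3.08), as were 8 of 20 other immediate early genes, among them Btg2 at 3.15 and Cyr61 at 3.15, and Fosl2 at 2.31, 1 of 2 further FOS and JUN genes. Of late response genes 3 of 13 passed, with Ptgs2 at 2.61, of p53 and integrated stress genes 4 of 13, with Cdkn1a, a cell cycle inhibitor under p53, at 2.21, of injury genes 1 of 5, and of heat shock genes 0 of 10. The injury gene, Ecel1, rested on 2 against 8 UMIs (4.01, 0.415 to 20.1), and some others counted also had intervals that held 1. The list medians were 2.14 for EGR and NR4A, 1.71 for FOS and JUN, 1.36 for other immediate early, 1.31 for p53 and integrated stress, 1.25 for late response, 1.20 for injury and 1.06 for heat shock genes, against 1 for all genes.

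Between the end bins of viral UMIs, where 9.67% of all genes were at least 2-fold higher, 2 of 4 EGR and NR4A genes were, Nr4a2 at 2.41 and Egr4 at 2.23, with 4 of 18 other immediate early genes, among them Gadd45g at 3.73 and Tiparp at 3.91. Late response genes gave 3 of 13, with Ptgs2 at 4.62 (2.73 to 8.07) and Plk2 at 2.83 (2.01 to 4.01), and p53 and integrated stress genes 5 of 13, with Bbc3, a p53 target that promotes cell death, at 5.59 (1.69 to 23.8) and Cdkn1a at 2.45 (1.54 to 3.92). Several genes counted rested on few UMIs, with Inhba on 5 against 2, an immediate early gene on 5 against 4 and Sesn2, a bound only, on 6 against 0. No p53 or integrated stress gene counted besides Bbc3 and Cdkn1a had an interval above 1. Injury genes gave 1 of 4, Sox11 at 2.54, and further FOS and JUN genes 0 of 2 and heat shock genes 0 of 8, with Hspa8 at 1.08 (0.866 to 1.33) and Hsp90aa1 at 1.44 (1.14 to 1.81). With 20 or more against under 5 viral UMIs, of these genes past 2-fold Gadd45g, Ptgs2, Bbc3 and Sesn2 stayed past it, at 2.40, 3.02, 2.67 and 4.57, and the others were under it, among them Nr4a2 at 1.95, Egr4 at 1.73, Sox11 at 1.69, Plk2 at 1.63, Cdkn1a at 1.54, Tiparp at 1.43 (1.00 to 2.04) and Inhba at 0.762. Hspa1b stood at 3.74 (1.92 to 7.71) in that grouping, from 34 against 13 UMIs. Other listed genes went down. Nrn1, a late response gene, was at 0.564 (0.455 to 0.695) between the end bins, from 118 against 390 UMIs. In the wider grouping it was at 0.741 (0.678 to 0.808), and Klf6 at 0.774 (0.623 to 0.959). At least 2-fold lower between the end bins were 2 of 18 other immediate early and 2 of 13 p53 and integrated stress genes. Their intervals held 1, and no gene of the other lists was that much lower. The medians were 1.78 for EGR and NR4A, 1.66 for p53 and integrated stress, 1.64 for injury, 1.34 for FOS and JUN, 1.25 for other immediate early, 1.25 for late response and 1.16 for heat shock genes, against 1.01 for all genes. Between excitatory-like and other gated nuclei, where 6.46% of all genes were at least 2-fold higher, 3 of 4 EGR and NR4A, 5 of 13 late response and 2 of 20 other immediate early genes were, and 0 of 2, 0 of 10, 0 of 5 and 0 of 13 of the FOS and JUN, heat shock, injury and p53 lists. The medians were 2.43 for EGR and NR4A, 1.91 for late response, 1.35 for injury, 1.20 for other immediate early, 0.986 for FOS and JUN, 0.941 for heat shock and 0.681 for p53 and integrated stress genes, against 1.04 for all genes.

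The genes of largest fold outside the 10, by the rule of highest fold, rested on very few UMIs. For the viral bins they were Mas1, at 24.2 from 13 against 1 UMI, Tnfaip6, 9330154J02Rik, Akap13, Echdc2, Mthfd2, Mtss1, Gng7, Wasf2 and 1110059E24Rik. For the Fos UMI they were Mavs, at 32.1 from 4 against 2 UMIs, Slc13a3, Ino80b, Fgf1, Emcn, Slc7a10, Dach1, Eva1a, Pcsk6 and Smim3. Among genes with at least 20 UMIs in the higher group, a rule added after these values were seen, the viral bins were led by Ctgf, a matricellular growth factor, at 6.78 from 40 against 11 UMIs, and the Fos UMI by Irs2, an insulin receptor substrate, at 3.80 from 98 against 414 UMIs.

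The library sets differed for 3 genes in excitatory-like nuclei. Fos lay between 1.55 and 1.95 in the 5 libraries of set 1 and between 0.984 and 1.27 in set 2. Egr2 lay between 0.778 and 0.955 against 0.342 and 0.563, and Npas4 between 0.405 and 0.650 against 0.225 and 0.358, and neither overlapped. These were 3 of the 9 genes with at least 100 UMIs, against 5.06% of 10078 genes whose sets did not overlap in either direction. Arc, Egr1, Junb, Jun, Fosb and Gadd45b overlapped between the sets. Whether a set is an animal, a preparation or a run is not in the labels, and these cannot be told apart.

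ATAC-Seq of uninjected cortex played no part in the choice of the genes. The 6 samples held 1801883 to 2256073 reads in 323369 regions, and the regions at the marker genes followed the labels, with Pvalb at 62.5 and 75.3 CPM (reads on a region scaled by library size) in PV samples against 32.7 to 40.3, Sst at 71.6 and 78.8 in SST samples against 31.8 to 48.1, and Vip at 30.6 and 35.4 in VIP samples against 5.56 to 7.16. Within 10 kb of the 10 genes lay 66 regions, of which 40 passed the filter on low counts and were tested with edgeR's quasi-likelihood test, with Benjamini-Hochberg adjustment over all 40338 regions tested. Of the 40 regions, 24 differed between PV and VIP (49.1% of all regions tested), and 19 of the 24 were lower in PV, while over all regions 9904 of 19824 were lower. Between SST and VIP 13 differed (36.3% of all), 8 of them lower in SST, while over all regions 7436 of 14633 were lower. Between SST and PV 4 differed (8.29% of all), 3 of them higher in SST. Nothing particular to the 10 genes is read from these counts. The median log2 fold change was -0.74 for PV against VIP, -0.34 for SST against VIP and 0.19 for SST against PV, beside 0.04, 0.07 and -0.01 over all regions.

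The region at the start of Arc (chr15:74672219-74673022, mm10) had 41.7 and 51.2 CPM in PV, 108 and 125 in VIP and 118 and 119 in SST samples. PV lay under both other types without overlap, by a log2 fold change of -1.33 ± 0.22 (SE, n = 2 per type) against VIP (edgeR adjusted p = 0.000191), and SST was 1.35 ± 0.22 above PV (edgeR adjusted p = 0.00296). Without the filter on low counts the call of Arc between SST and PV was lost (edgeR adjusted p = 0.140). A region upstream of Arc (chr15:74678864-74679727) had 4.86 and 10.1 CPM in PV, 45.6 and 43.2 in VIP and 26.5 and 25.4 in SST samples, with PV lower than VIP by a log2 fold change of -2.58 ± 0.38 (edgeR adjusted p = 7.72e-05). In the snRNA-Seq the Arc level was low in both PV-like and SST-like nuclei, at 1.23 and 1.10.

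At the start of Junb (chr8:84978368-84979163) VIP samples had 135 and 113 CPM against 66.0 and 73.0 in PV and 72.3 and 68.2 in SST samples. PV was lower than VIP by a log2 fold change of -0.84 ± 0.22 (edgeR adjusted p = 0.00414). The gene span of Junb overlaps Prdx2 on the other strand, and regions counted at Junb can also belong to that gene. Of the 40 regions 28 differed in at least 1 contrast, against 57.7% of all regions tested. These were all 7 at Junb, 4 of 5 at Fos, 4 of 5 at Egr1, 3 of 4 at Egr2, 3 of 4 at Atf3, 3 of 3 at Arc, 2 of 4 at Gadd45b, 1 of 3 at Fosb, 1 of 3 at Jun and 0 of 2 at Npas4. At the start of Gadd45b (chr10:80929542-80930327) VIP samples had 94.6 and 74.5 CPM against 50.0 and 47.4 in PV (PV against VIP log2 fold change -0.79 ± 0.25, edgeR adjusted p = 0.0140) and 40.8 and 49.6 in SST samples. This call of Gadd45b was lost without PV 1, PV 2 or VIP 1, with edgeR adjusted p of 0.0575, 0.111 and 0.116. The region over the start of Jun (chr4:95051962-95053030) had 73.7 and 52.0 CPM in PV, 66.0 and 55.9 in VIP and 52.96 and 78.2 in SST samples, overlapping in every pair, with edgeR adjusted p from 0.772 to 0.921. Jun lies opposite Junos on the other strand. The region at the CArG box of Egr2 (chr10:67537270-67538078) went the other way, with 76.4 and 64.4 CPM in PV against 31.3 and 27.0 in VIP samples, a log2 fold change of 1.27 ± 0.35 (edgeR adjusted p = 0.00625). SST samples had 104 and 40.9 CPM there and lay far apart, and SST was above VIP by 1.31 ± 0.35 (edgeR adjusted p = 0.00674). Without the filter both calls at Egr2 were lost, with edgeR adjusted p of 0.246 and 0.212, and without SST 1 the one between SST and VIP was lost (edgeR adjusted p = 0.188). The tests rest on 2 samples per type. The count of differing regions at the 10 genes between PV and VIP was 12, 13, 14 and 15 without PV 1, PV 2, VIP 1 and VIP 2, 29 and 27 without SST 1 and SST 2, 14 with DESeq2 and 13 without the filter on low counts. Between SST and VIP it was 8 without VIP 1 and 8 to 19 over the 6 samples left out, 7 with DESeq2 and 6 without the filter, and between SST and PV it was 1 without PV 1, 2 without PV 2, 10 without SST 1, 2 with DESeq2 and 0 without the filter.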

How the data were processed

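The deposited snRNA-Seq counts are UMIs per barcode and gene in 10 libraries, which the authors made by mapping inDrops reads to GRCm38, to which the viral barcodes had been added, without normalization. The deposited ATAC-Seq counts are reads on 323369 reference regions (mm10) in 6 samples, which the authors made with Trimmomatic 0.33, Subread 1.4.6-p3 and featureCounts after peak calling with MACS2 and HOMER, also without normalization. The authors' fold and specificity columns, which hold their own comparisons, and the conservation values were not used.

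The 10 genes, the marker lists and the gene lists were chosen with earlier results of these data known. Viral UMIs of a nucleus were summed over 1164 viral barcode columns, and a further pooled viral column (r = 0.993 with that sum) was left out of non-viral depth. Barcodes of more than 200 non-viral UMIs were kept. A nucleus took a type with at least 3 UMIs on its marker list, at least 4 times the number its depth gives, and at least 2 times the ratio of any other list passed. Excitatory-like nuclei needed at least 3 UMIs on their list, no other list passed and no UMI of a shared GABAergic list. Doublets were not called. Genes with at least 100 UMIs served as background, and a gene was counted at a fold of at least 2. Where a group had no UMI, the floor was 3 counts over the group. Thinning to 500 UMIs used a fixed seed. The scripts were tested on simulated data.

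ATAC-Seq counts were fitted over all 6 samples with edgeR 4.0.16 (quasi-likelihood, TMM, filterByExpr, cell type as the only term) at a false discovery rate of 5%. Each ATAC-Seq sample was made from the nuclei of 1 animal, per the study's methods. The p-values rest on the spread between the 2 animals of a type, pooled over the cell types in 1 fit. That estimate also borrows from other regions, so it is not the spread of the 2 types compared alone. The SE printed is the absolute log2 fold change over the square root of the test's F statistic. Same-numbered samples did not deviate together, with correlations from -0.03 to 0.03. Gene positions came from GENCODE M21. Named genes were the 10, up to 4 of each list, and the 10 others of highest fold. Alternatives were other thinning depths, gates, bins, Leiden clusters (scanpy 1.11.5), a library or sample left out, folds within libraries (added after seeing the data), DESeq2 1.42.0, RLE scaling, no filter and other windows.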

Additional observations from a re-analysis of the deposited data

Results flagged for a closer look

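The level of Jun in excitatory-like nuclei was 1.19 UMIs per 10000 in library 1-1, farther from the other 9 libraries (0.743 to 0.956) than Dixon's limit for 10 values allows. It was the only such value among 20 sets of library levels read at both ends, and chance gives about 1 in 20.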

How the results depend on the processing

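With Leiden clusters in place of the gates, 3 genes were at least 2-fold higher in excitatory-like nuclei, not 6, and Atf3 turned from 0.432 to 1.37, as it did in library set 1 alone, at 1.08, where the cause was not tested. Without the 4 clusters named for a list other than the excitatory one at an enrichment under 2, a choice made after seeing the data, 6 genes passed and Atf3 stood at 0.780. Shares of all genes are not given for these cluster settings. The ratio of nuclei with 3 or more genes was 2.59 at 300 and 1.47 at 1000 UMIs per nucleus. The summed fold over viral bins was 1.18 with 5 equal groups of viral UMIs in each library and 1.29 with each gene counted once per nucleus and, with groupings chosen after seeing the data, 1.23 with 5 such groups of viral per non-viral UMI, 1.22 with 20 or more against under 5, and 1.48 within libraries. Leaving out 1 library at a time gave 6 genes in excitatory-like nuclei throughout, 4 to 6 past 2-fold by viral bin, a summed fold of 1.41 to 1.54 and a ratio of 1.95 to 2.03.

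ATAC-Seq regions called were 3344 (SST against PV), 14633 (SST against VIP) and 19824 (PV against VIP). They were 430, 7456 and 11614 with DESeq2. Without the filter they were 0, 7019 and 10868 by edgeR, with 20689, 41025 and 47200 at an unadjusted p under 0.05. Leaving out 1 sample gave 806 to 8576, 8581 to 19017 and 12980 to 27615, the lone sample being taken to vary like the other types; SST against PV had 806 without PV 1, 1041 without PV 2 and 8576 without SST 1, and the 2 contrasts with VIP were lowest without VIP 2. A replicate block, by a number that does not pair the samples, gave 2557, 13993 and 19159.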
